A study of Mus musculus with 28 samples.

Results

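The genes of the liver X receptors (LXRs) and of cholesterol efflux were followed in murine bone marrow-derived macrophages (BMDMs) exposed to von Willebrand factor or to lipopolysaccharide. They were 6 genes chosen by name (Abca1, Abcg1, Nr1h2, Nr1h3, Mylip and Apoe) out of 54532 in the count table, found by Ensembl identifier through a GENCODE annotation of GRCm38. LXRs are nuclear receptors that bind oxysterols and the cholesterol precursor desmosterol. Paired with a retinoid X receptor (RXR), they switch on genes that move cholesterol out of the cell. Nr1h3 encodes LXRα, which is enriched in liver, fat, intestine and macrophages, and Nr1h2 encodes the widely expressed LXRβ. Abca1 and Abcg1 encode membrane transporters that pass cholesterol to lipid-poor apolipoproteins and to high-density lipoprotein respectively. Apoe encodes an apolipoprotein that macrophages secrete and that accepts cholesterol. Mylip encodes the ubiquitin ligase IDOL, an LXR target that limits the uptake of lipoprotein cholesterol.

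BMDMs grown from the marrow of C57/B6JB mice aged 8 to 12 weeks with M-CSF were moved to fresh medium with calcium chloride and incubated with PBS (control), with plasma-derived von Willebrand factor (pd-VWF, 10 µg/ml) or with bacterial lipopolysaccharide (LPS, 100 ng/ml). The age is that of the paper's cell culture section, and its general statement on murine experiments gives a younger range. The pd-VWF was the human protein, added here to mouse cells. VWF is the large adhesive plasma protein that tethers platelets at sites of vessel injury, and LPS is the classical trigger of inflammatory activation in macrophages. RNA was sequenced after 3.5 h or 16 h in 5 control, 5 VWF and 4 LPS cultures at each time, 28 in all, to learn how VWF changes macrophage transcription. Cultures are labelled as biological replicates, but the number of animals behind them is not stated, so p values measure the spread between these cultures.

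The genes lie on 5 chromosomes of GRCm38. Abca1 (ENSMUSG00000015243) is at chr4:53030787-53159895 on the minus strand and Nr1h3 (ENSMUSG00000002108) at chr2:91184061-91202834 on the minus strand. Nr1h2 (ENSMUSG00000060601) and Apoe (ENSMUSG00000002985) are both on the minus strand of chromosome 7, at 44549616 to 44553951 and at 19696109 to 19699188. Abcg1 (ENSMUSG00000024030) is at chr17:31057675-31117988 and Mylip (ENSMUSG00000038175) at chr13:45389742-45412022, both on the plus strand. All 6 are protein coding. None of their transcripts shares a window of 100 bases with another gene. The only exon overlap is of 34 bases (1.35% of the exon length) between Nr1h3 and the processed transcript Gm13783, which had at most 4 counts in any culture.

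The promoters of Abca1 and Nr1h3 are shown because only these of the 6 genes passed both the adjusted p and the fold threshold with VWF against control. LXR–RXR pairs bind a repeat of the hexamer AGGTCA with a spacer of 4 bases (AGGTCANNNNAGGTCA), and Abca1 is a textbook LXR target. The 250 bases before the RefSeq start site (GRCm38.p6, minus strand, written 5′ to 3′) are given with the closest match to that repeat on either strand in capitals. The Abca1 stretch is chr4:53159896-53160145 and the Nr1h3 stretch is chr2:91195117-91195366. The Abca1 stretch adjoins the 5′ end of the annotated gene at 53159895. The Nr1h3 stretch belongs to a start site inside the annotated gene, whose 5′ end is at 91202834.
Abca1: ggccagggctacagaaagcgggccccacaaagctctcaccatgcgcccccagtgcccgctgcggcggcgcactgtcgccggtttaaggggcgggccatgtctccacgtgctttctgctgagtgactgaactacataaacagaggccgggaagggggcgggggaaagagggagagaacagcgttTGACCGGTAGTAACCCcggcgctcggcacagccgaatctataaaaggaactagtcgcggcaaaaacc
Nr1h3: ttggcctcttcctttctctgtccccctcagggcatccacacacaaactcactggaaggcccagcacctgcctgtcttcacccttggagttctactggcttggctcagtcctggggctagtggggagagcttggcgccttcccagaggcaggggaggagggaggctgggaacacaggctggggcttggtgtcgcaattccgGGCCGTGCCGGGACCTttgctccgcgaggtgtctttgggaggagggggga
The Abca1 match, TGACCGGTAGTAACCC at positions -67 to -52, reads on the opposite strand and differs from the 12 fixed letters at 3 positions. A match with as few differences was found in 21.9% of 32851 promoters of the same length, which ran from 250 bases before to 50 bases after the start. A share of 3.02% held one with at most 2 differences. The Nr1h3 match (GGCCGTGCCGGGACCT, -50 to -35) differed at 4 letters, and so did the best matches in the windows of Apoe and Nr1h2, and 76.9% of promoters held a match with 4 or fewer. The best match of Mylip had 5 differences, and 99.8% of promoters held one with 5 or fewer. Nr1h3 has a second, overlapping window with the same match, and Apoe has 3 windows. Such a match is a description of letters and no evidence of binding.

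Total counts per culture ran from 41131209 to 77699206 (median 52986574). At 16 h, control replicate 5 and LPS replicate 4 correlated less with their groups (median r of 0.911 and 0.940) than the other 26 cultures (0.974 to 0.993). Values without them are given where a call or direction changed. TMM scaling factors, which correct for a few abundant transcripts taking up reads, were 0.735 to 0.848 in LPS cultures and 0.945 to 1.18 elsewhere. All 8 macrophage markers, Csf1r and Adgre1 among them, were detected, with a summed level of 5160.1 to 26036 CPM. CPM is the count scaled to library size with TMM factors. Sums were at most 36.7 for neutrophil, 31.3 for dendritic cell, 8.61 for T cell, 2.56 for B cell and 0.655 CPM for mast cell markers. Erythroid markers summed to at most 0.0835 CPM, and 5 stromal markers summed to between 17.8 and 419 CPM. In these bulk cultures, a change in the number of cells of a type and in RNA per cell cannot be told apart.

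All 6 genes were well expressed. On a scale that corrects for transcript length (TPM), Apoe was the highest in each group, with a mean of 17364 ± 1408 TPM (SD, n = 5) in controls at 3.5 h and 7844 ± 993 TPM (n = 4) after LPS for 16 h. Its cultures never overlapped those of the next gene. The other 5 genes lay between 6.42 and 188 TPM. In controls at 3.5 h, Nr1h2 (87.6 ± 9.71 TPM) and Nr1h3 (81.6 ± 14.5 TPM, n = 5) overlapped, followed by Mylip at 51.5 ± 5.86, Abca1 at 36.2 ± 11.6 and Abcg1 at 24.5 ± 3.94 TPM. Of these, Nr1h3 and Mylip were separated in every culture, and Mylip and Abca1, and Abca1 and Abcg1, overlapped. The study's methods ask a gene to reach 10 TPM in at least 1 culture. Abca1, Nr1h2, Nr1h3 and Apoe did so in 28 of 28 cultures, Abcg1 in 27 and Mylip in 25, and all 6 genes were tested in each of the 11 comparisons.

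**Figure D1:**
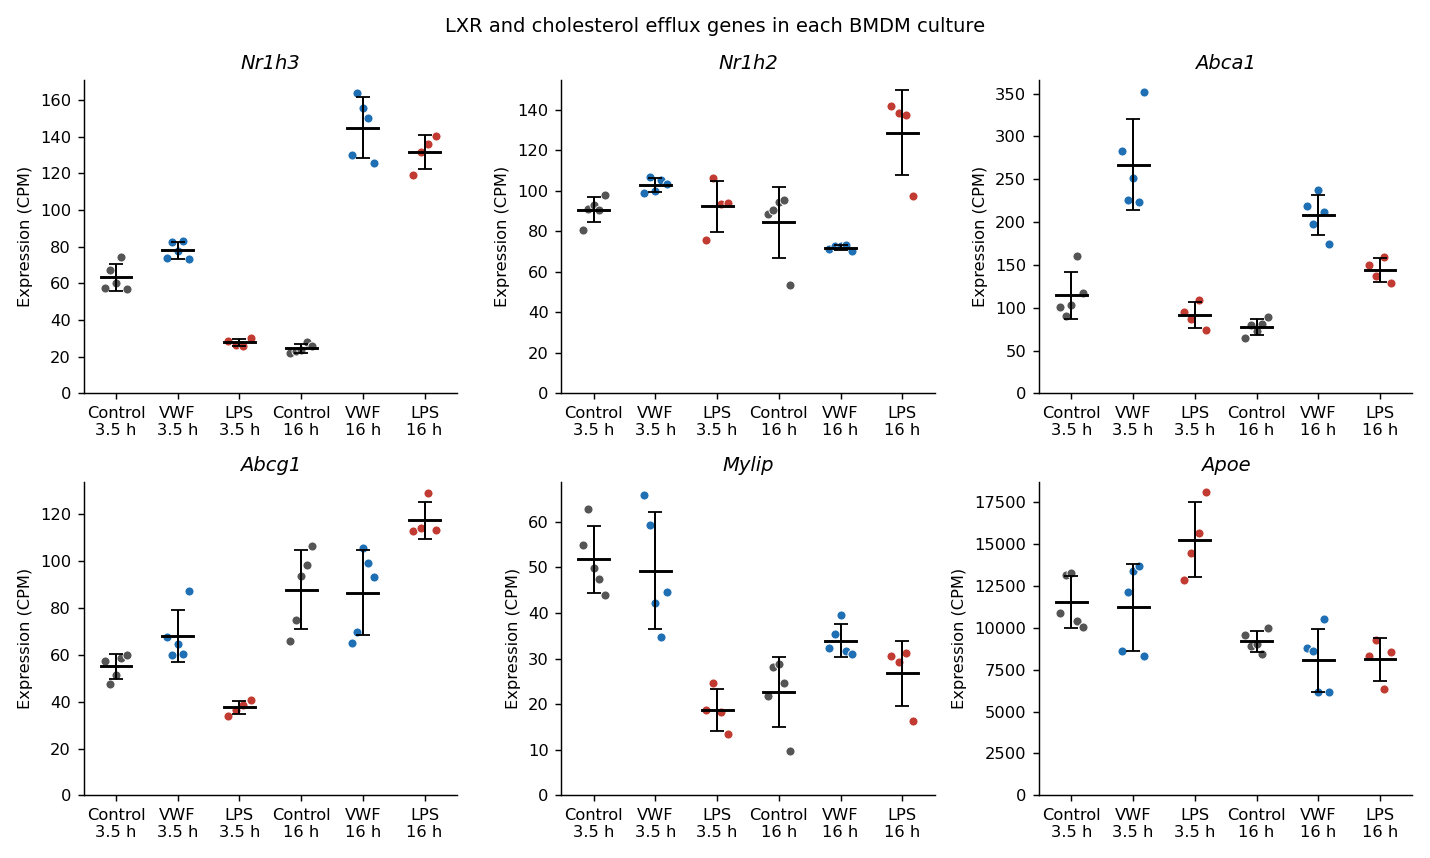
Expression of the 6 genes (CPM, linear axes from 0) in each culture by group, with a point per culture, the group mean as a bar and the SD as whiskers (n = 5 for control and VWF, n = 4 for LPS). Nr1h3 stands at 125 CPM or more in every VWF culture at 16 h and at 27.8 CPM or less in every control of that time, and Abca1 is above control in every VWF culture at both times.

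The receptors were taken first. Nr1h3 rose with VWF at both times, modestly at 3.5 h and 5.88-fold at 16 h, and LPS lowered it at 3.5 h and raised it 5.52-fold at 16 h. At 3.5 h Nr1h3 measured 57.2, 67.5, 60.3, 74.3 and 56.7 CPM in controls, 73.9, 82.5, 77.5, 82.9 and 73.1 CPM with VWF, and 28.3, 26.4, 26.1 and 30.2 CPM with LPS. Control replicate 4 reached into the VWF range, whereas every LPS culture was below every other culture of that time. The log2 fold change against control was 0.33 (SE 0.09, adjusted p = 0.00823, edgeR's quasi-likelihood test with Benjamini-Hochberg adjustment, as for all adjusted p values below) with VWF and -1.16 (SE 0.10, adjusted p = 1.34e-06) with LPS. The VWF difference was 0.11 (adjusted p = 0.311) when cultures were scaled by library size alone, without TMM factors.

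By 16 h Nr1h3 had fallen in controls to 22.1, 22.9, 23.7, 27.8 and 26.0 CPM, while VWF cultures held 129.8, 164, 155, 150.2 and 125 CPM and LPS cultures 119, 131, 136 and 141 CPM. Every treated culture was above every control, and VWF and LPS cultures overlapped. Log2 fold changes were 2.56 (SE 0.11, adjusted p = 1.79e-07, edgeR) for VWF and 2.46 (SE 0.10, adjusted p = 7.64e-08, edgeR) for LPS, both against the same 5 controls. Between the times Nr1h3 changed by -1.36 in controls (SE 0.11, adjusted p = 8.98e-06, edgeR) and by 0.90 in VWF cultures (SE 0.09, adjusted p = 4.23e-06, edgeR). In LPS cultures the rise between the times was 2.27 (SE 0.10, adjusted p = 4.71e-07, edgeR).

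The effect on Nr1h3 differed between the times for both stimuli, by 2.24 (SE 0.14, adjusted p = 2.05e-10) for VWF and by 3.64 (SE 0.15, adjusted p = 2.10e-11, edgeR) for LPS on the log2 scale. VWF and LPS cultures differed at 3.5 h by 1.51 (SE 0.08, adjusted p = 3.74e-07, edgeR). At 16 h they differed by 0.14 (95% confidence interval -0.08 to 0.36, adjusted p = 0.248, edgeR). The difference was 0.18 (adjusted p = 0.0404, edgeR) with the replicate number as a block, and 0.58 (adjusted p = 0.000675, edgeR) under library size scaling. The rule for replicate numbers was met by these groups alone, and it cannot show that the numbers pair cultures. The summed CPM of the macrophage markers was 18708 to 26036 with VWF at 16 h against 5160.1 to 16461 in controls. It was 6672 to 12087 CPM in LPS cultures of that time. A sum follows its most abundant genes, and the markers were not compared singly as a set. Of the 8 markers only Mertk, which is also a listed LXR target, was tested singly. Its VWF and control cultures overlapped at 16 h, and the difference did not pass (42.0 against 60.2 CPM, -0.53, adjusted p = 0.158, edgeR). That value does not stand for the other markers. The part of the difference in this sum in the Nr1h3 result was not tested.

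Nr1h2 passed the test with VWF at 3.5 h and with LPS at 16 h, each time with a log2 fold change below 1 and neither time under library size scaling. With VWF it stood at 98.9, 107, 100.0, 105 and 104 CPM at 3.5 h, each above the controls at 80.7, 91.3, 93.2, 90.6 and 98.1 CPM. LPS cultures held 75.8, 106, 93.8 and 93.9 CPM and overlapped the controls. The rise with VWF was 0.21 (SE 0.07, adjusted p = 0.0209, edgeR). It was lost when control replicate 1, control replicate 4 or VWF replicate 2 was left out (adjusted p from 0.0522 to 0.0654), with no filter (adjusted p = 0.0764) and with all groups in one fit (adjusted p = 0.255, edgeR). It turned to -0.0078 when cultures were scaled by library size alone. With LPS the difference at 3.5 h was 0.05 (95% confidence interval -0.18 to 0.27, adjusted p = 0.695, edgeR), and -0.48 (adjusted p = 0.00121) under library size scaling. VWF differed from LPS by 0.18 (95% confidence interval -0.03 to 0.39, adjusted p = 0.132, edgeR), by 0.25 (adjusted p = 0.0413) without LPS replicate 2 and by 0.47 (adjusted p = 0.00160) under library size scaling.

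At 16 h the Nr1h2 levels were 88.6, 90.7, 94.3, 95.5 and 53.6 CPM in controls, 71.1, 72.7, 72.8, 73.1 and 70.4 CPM with VWF, and 142, 138, 138 and 97.3 CPM with LPS. Control replicate 5 and LPS replicate 4, the cultures that stood apart, were the lowest of their groups. VWF differed from control by -0.24 (95% confidence interval -0.57 to 0.09, adjusted p = 0.279, edgeR), and by -0.37 (adjusted p = 0.000139) without control replicate 5. LPS raised Nr1h2 by 0.64 (SE 0.18, adjusted p = 0.0145, edgeR), or by 0.09 (adjusted p = 0.756) under library size scaling. The rise was 0.52 without control replicate 5, 0.75 without LPS replicate 4 and 0.63 without both. LPS cultures were above VWF cultures without overlap (VWF against LPS -0.84, SE 0.11, adjusted p = 0.000120, edgeR, and -0.40 under library size scaling). Between the times Nr1h2 changed by -0.51 (SE 0.05, adjusted p = 8.30e-06) in VWF cultures and by 0.51 (SE 0.14, adjusted p = 0.0141, edgeR) in LPS cultures.

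The balance between the receptor transcripts differed between the groups. The ratio of Nr1h3 to Nr1h2, taken per culture from TPM and so independent of the scaling between cultures, was 0.932 ± 0.122 (SD, n = 5) in controls and 1.01 ± 0.0435 (n = 5) with VWF at 3.5 h, and 0.408 ± 0.0725 (n = 4) with LPS. At 16 h it was 0.408 ± 0.136 (n = 5) in controls, 2.68 ± 0.269 (n = 5) with VWF and 1.41 ± 0.358 (n = 4) with LPS. Every VWF culture at 16 h (2.38 to 3.00) was above every LPS culture (1.12 to 1.93), and both were above the controls (0.332 to 0.648). Exact permutation tests, two-sided and adjusted over 6 comparisons, gave an adjusted p of 0.238 for VWF against control at 3.5 h and of 0.0190 for each of the other 5. Their raw p values of 0.00794 (5 against 5 cultures) and 0.0159 (5 against 4) are the smallest these designs can give. All were unpaired, also for VWF against LPS at 16 h, where the rule for replicate numbers was met. The p value of that comparison leaves out any such pairing. The ratio and its test were added after the levels had been seen. With both cultures that stood apart left out, LPS and control at 16 h still differed without overlap, but the smallest p of 4 against 3 cultures is 0.0571.

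**Figure D2:**
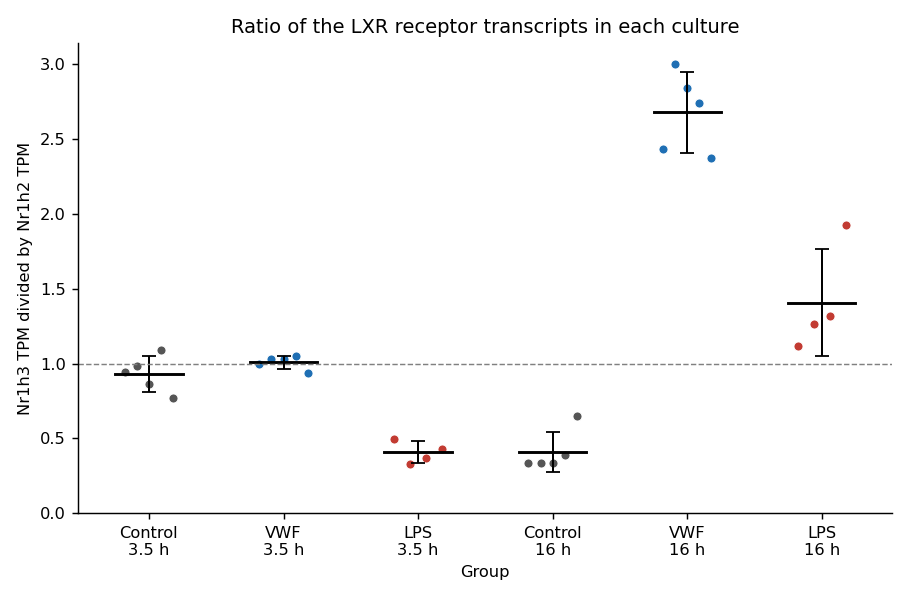
Ratio of Nr1h3 TPM to Nr1h2 TPM in each culture by group, with the group mean as a bar, the SD as whiskers and a dashed line at equal levels. VWF cultures at 16 h lie from 2.38 to 3.00, above the LPS cultures of that time (1.12 to 1.93) and all controls (at most 1.09).

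Of the transporters, Abca1 rose with VWF 2.38-fold at 3.5 h and 2.68-fold at 16 h, and with LPS it rose 1.91-fold at 16 h. At 3.5 h it measured 100.4, 90.6, 104, 159.9 and 117 CPM in controls, 283, 225, 252, 223 and 352 CPM with VWF, and 95.3, 87.0, 109.7 and 73.7 CPM with LPS. VWF cultures were all above controls, and LPS cultures overlapped them. The log2 fold change was 1.25 (SE 0.17, adjusted p = 0.000100, edgeR) for VWF and -0.30 (95% confidence interval -0.66 to 0.06, adjusted p = 0.127, edgeR) for LPS, the latter reaching -0.83 (adjusted p = 0.00147) under library size scaling.

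Abca1 at 16 h measured 64.6, 79.6, 72.6, 80.8 and 89.0 CPM in controls, 218, 198, 237, 212 and 174 CPM with VWF, and 150.5, 137, 159.5 and 129 CPM with LPS. The 3 groups did not overlap, in the order VWF, LPS, control. VWF raised Abca1 by 1.42 (SE 0.11, adjusted p = 5.48e-06, edgeR) and LPS by 0.93 (SE 0.11, adjusted p = 8.30e-05, edgeR), and VWF exceeded LPS by 0.53 (SE 0.11, adjusted p = 0.00171, edgeR). Under library size scaling the LPS rise was 0.41 and VWF exceeded LPS by 0.97. The LPS rise passed the fold threshold with filterByExpr (1.01), with no filter (1.03) and without both cultures that stood apart (1.04). VWF also exceeded LPS at 3.5 h, by 1.57 (SE 0.16, adjusted p = 2.14e-05, edgeR). The LPS effect grew between the times by 1.25 (SE 0.23, adjusted p = 0.000207, edgeR), whereas the change of the VWF effect was 0.19 (95% confidence interval -0.27 to 0.64, adjusted p = 0.586, edgeR).

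Abcg1, the other transporter, fell with LPS at 3.5 h, rose slightly with VWF at 3.5 h, and rose with LPS at 16 h with TMM but not with library size scaling. Its levels at 3.5 h were 57.5, 47.5, 51.5, 58.7 and 60.1 CPM in controls, 67.8, 60.1, 64.5, 60.4 and 87.4 CPM with VWF and 34.1, 36.6, 38.7 and 40.9 CPM with LPS. LPS cultures lay below all others, and the VWF and control ranges met at 60.1 CPM. LPS lowered Abcg1 (log2 fold change -0.53, SE 0.09, adjusted p = 0.000449, edgeR, and -1.06 under library size scaling), and VWF raised it by 0.33 (SE 0.12, adjusted p = 0.0353, edgeR). The VWF call was lost without any 1 of control replicates 1, 2, 3 and 4 and VWF replicates 1 and 5 (6 of 10 fits, adjusted p from 0.0569 to 0.0859). It was also lost with all groups in one fit (0.31, adjusted p = 0.0777, edgeR). It was 0.21 without VWF replicate 5 and 0.12 (adjusted p = 0.466) under library size scaling.

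At 16 h Abcg1 measured 65.8, 74.8, 93.6, 98.4 and 107 CPM in controls, 64.9, 69.7, 105, 99.3 and 93.4 CPM with VWF, and 113, 114, 129 and 113 CPM with LPS. VWF and control cultures covered the same range, with a difference of -0.03 (95% confidence interval -0.41 to 0.35, adjusted p = 0.932, edgeR), while all LPS cultures were higher. The rise with LPS was 0.46 (SE 0.15, adjusted p = 0.0262, edgeR). It was lost without control replicate 2 (0.40, adjusted p = 0.0609) or LPS replicate 3 (0.41, adjusted p = 0.0663), and it was -0.07 under library size scaling, where the median of all genes was -0.57. VWF was above LPS at 3.5 h by 0.88 (SE 0.12, adjusted p = 0.000188, edgeR) and below it at 16 h (-0.44, SE 0.15, adjusted p = 0.0304, edgeR). The latter was lost without VWF replicate 1 or 2 or LPS replicate 1, 2 or 3 (adjusted p from 0.050028 to 0.0742) and was -0.0011 under library size scaling. Between the times Abcg1 rose in controls by 0.68 (SE 0.14, adjusted p = 0.00329, edgeR) and in LPS cultures by 1.67 (SE 0.09, adjusted p = 1.50e-06, edgeR). The LPS effect changed by 1.00 (SE 0.18, adjusted p = 0.000203, edgeR), a value at the fold threshold. It was below that threshold in 8 of the 18 fits that left out a culture and under 6 other alternatives, while the adjusted p passed in all of these.

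Mylip fell with LPS at 3.5 h to a fold of 0.368 of control, and did not pass the test with VWF at that time. It measured 54.9, 62.8, 49.8, 47.4 and 44.0 CPM in controls, 66.0, 59.3, 42.1, 34.8 and 44.6 CPM with VWF and 18.7, 24.7, 18.4 and 13.5 CPM with LPS, the LPS cultures lying below all others. Log2 fold changes were -1.44 (SE 0.17, adjusted p = 2.46e-05, edgeR) for LPS and -0.04 (95% confidence interval -0.43 to 0.35, adjusted p = 0.894, edgeR) for VWF, with VWF above LPS by 1.42 (SE 0.22, adjusted p = 0.000440, edgeR).

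At 16 h Mylip was at 21.8, 28.3, 28.9, 24.6 and 9.76 CPM in controls, 32.2, 35.4, 39.5, 31.7 and 31.0 CPM with VWF and 30.5, 29.3, 31.2 and 16.2 CPM with LPS. All VWF cultures were above all controls, yet the difference of 0.57 (95% confidence interval 0.01 to 1.13, adjusted p = 0.130, edgeR) did not pass. Without control replicate 5 it was 0.38 (adjusted p = 0.0155). LPS differed from control by 0.28 (95% confidence interval -0.43 to 0.99, adjusted p = 0.486, edgeR), by 0.27 (adjusted p = 0.0363) without both cultures that stood apart, and by -0.28 under library size scaling. The difference of VWF from LPS was 0.34 (adjusted p = 0.140, edgeR), or 0.41 (adjusted p = 0.0272) with the replicate block and 0.77 (adjusted p = 0.0102) under library size scaling. Between the times Mylip changed by -1.18 in controls (SE 0.25, adjusted p = 0.00363, edgeR), or by -0.997 without control replicate 5, and by -0.53 in VWF cultures (SE 0.17, adjusted p = 0.0149, edgeR). In LPS cultures it differed by 0.54 (SE 0.25, adjusted p = 0.0862, edgeR), and by 0.72 (adjusted p = 0.00503) without LPS replicate 4 of 16 h. The LPS effect changed by 1.73 (SE 0.37, adjusted p = 0.000850, edgeR) and that of VWF differed by 0.63 (95% confidence interval -0.02 to 1.29, adjusted p = 0.135, edgeR).

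Apoe, the most abundant transcript of the set, passed the test against control in 1 of 4 comparisons, LPS at 3.5 h, where the direction depended on the scaling. At 3.5 h it measured 10858, 13160.0, 13278, 10413 and 10064 CPM in controls, 8619, 12128, 13371, 13689 and 8288 CPM with VWF and 12836, 14430.0, 15655 and 18099 CPM with LPS. LPS cultures overlapped the top of the control range, and Apoe rose by 0.42 (SE 0.14, adjusted p = 0.0219, edgeR). The call was lost without LPS replicate 3 or 4 (adjusted p = 0.0526 and 0.0757), and the value turned to -0.10 under library size scaling, where the median gene was at -0.54. VWF differed from control by -0.02 (95% confidence interval -0.37 to 0.34, adjusted p = 0.954, edgeR). The difference of VWF from LPS was -0.42 (95% confidence interval -0.82 to -0.03, adjusted p = 0.0694, edgeR), and -0.51 (adjusted p = 0.0439) without VWF replicate 4. It also passed with DESeq2 (-0.44, adjusted p = 0.0244) and with all groups in one fit (-0.44, adjusted p = 0.0380, edgeR).

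Apoe at 16 h lay at 9544, 8897, 9021, 8448 and 10004 CPM in controls, 8774, 8634, 6172, 10512 and 6146 CPM with VWF and 8299.7, 9297, 6329 and 8524 CPM with LPS, with all 3 groups overlapping. Differences from control were -0.20 (95% confidence interval -0.54 to 0.14, adjusted p = 0.410) for VWF and -0.14 (95% confidence interval -0.45 to 0.17, adjusted p = 0.413, edgeR) for LPS, the latter reaching -0.68 (adjusted p = 0.000830) under library size scaling. VWF and LPS differed by -0.01 (95% confidence interval -0.44 to 0.41, adjusted p = 0.966, edgeR), and by 0.43 (adjusted p = 0.0380) under library size scaling. Between the times Apoe changed by -0.88 in LPS cultures (SE 0.15, adjusted p = 0.000845, edgeR), and the LPS effect changed by -0.55 (SE 0.19, adjusted p = 0.0215, edgeR). That call was lost without LPS replicate 4 of 3.5 h (-0.45, adjusted p = 0.0558). The falls in controls (-0.32, adjusted p = 0.0415) and in VWF cultures (-0.47, adjusted p = 0.0489, edgeR) were each lost in 7 of 10 fits that left out a culture, and under 3 and 2 other alternatives.

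**Figure D3:**
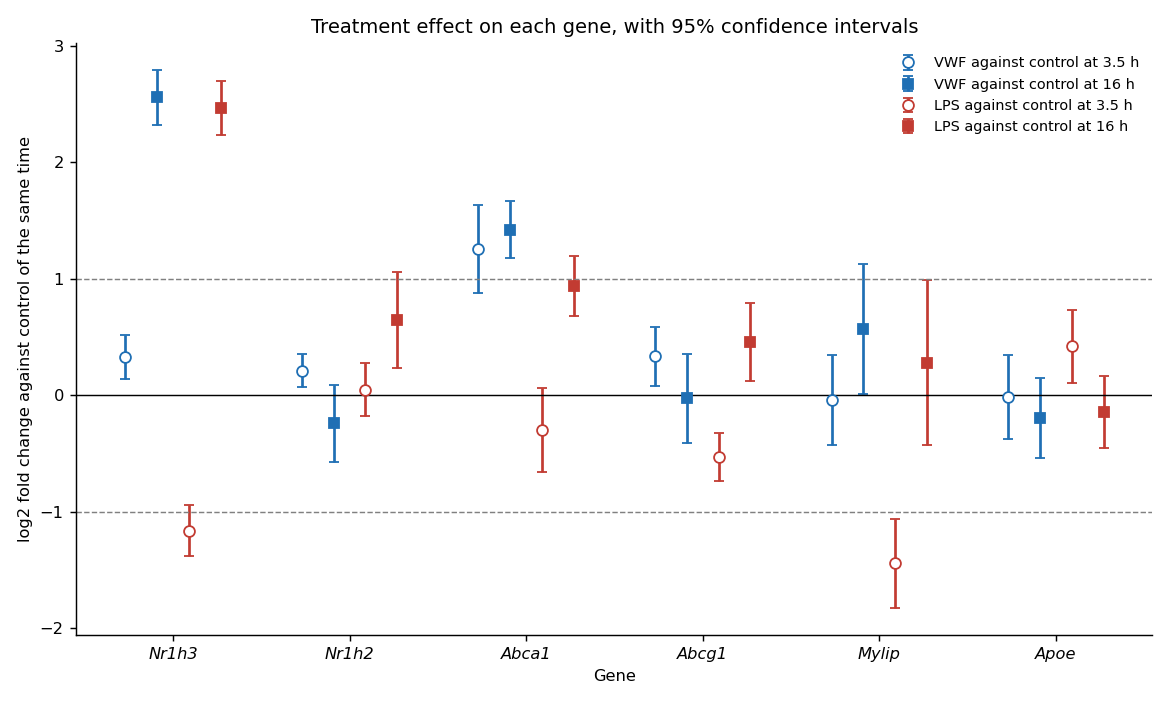
Log2 fold change of each gene against the control of the same time, with 95% confidence intervals from edgeR, for VWF (blue) and LPS (red) at 3.5 h (open circles) and 16 h (filled squares); dashed lines mark the fold threshold. Nr1h3 stands at 2.56 with VWF and 2.46 with LPS at 16 h, Abca1 is above 1 with VWF at both times, and Nr1h3 and Mylip are below -1 with LPS at 3.5 h; under library size scaling the positive values of Nr1h2 with VWF at 3.5 h, of Nr1h2 and Apoe with LPS at 3.5 h and of Abcg1 and Mylip with LPS at 16 h turn negative.

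Counted together, 4 of the 6 genes passed the adjusted p with VWF at 3.5 h, where 43.6% of 8200 tested genes did. Of these 1 (Abca1) also reached an absolute log2 fold change of 1, as 14.7% did. With VWF at 16 h 2 passed (27.7% of all genes), and both reached the fold (8.71%). LPS moved 4 at 3.5 h (65.7%), of which 2 reached the fold (24.5%), and 4 at 16 h (53.7%), of which 1 did (27.6%). The 6 genes had a median log2 fold change of 0.27 with VWF at each time, -0.41 with LPS at 3.5 h and 0.55 with LPS at 16 h. Medians of all genes tested were between -0.03 and 0.00, where TMM scaling largely holds them. Under library size scaling the all-gene medians were -0.22 and -0.08 for VWF and -0.54 and -0.57 for LPS at 3.5 h and 16 h. VWF and LPS were compared with the same control cultures, so these sets of values are not independent.

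VWF and LPS cultures differed at 3.5 h in 4 of the 6 genes by the adjusted p (50.2% of all genes), 3 of them also by the fold (11.4%), and at 16 h in 3 (60.5%), none by the fold (25.5%). Between the times 5 differed in controls (41.4%), 2 by the fold (9.11%). In treated cultures the time in culture and the length of exposure changed together. There 5 differed with VWF (68.0%), none by the fold (21.4%), and 5 with LPS (60.9%), 2 by the fold (28.1%). The VWF effect changed with time in 2 genes (32.4%), Nr1h2 and Nr1h3, with 1 by the fold (13.5%), and the LPS effect in all 6 (48.8%), with 4 by the fold (26.3%). The change for Nr1h2 with VWF (-0.43, adjusted p = 0.0385, edgeR) was lost in 15 of 20 fits that left out a culture and under 5 other alternatives. That with LPS (0.61, adjusted p = 0.0233, edgeR) was lost without LPS replicate 1 of 3.5 h (0.54, adjusted p = 0.0555, edgeR), with no filter and under library size scaling. Abca1 changed between the times by -0.56 in controls (adjusted p = 0.0174), by -0.35 with VWF (adjusted p = 0.0370, lost in 6 of 10 fits that left out a culture) and by 0.68 with LPS (adjusted p = 0.00222, edgeR).

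Partners and co-regulators of LXR were read from a list of 14 genes, of which 9 to 11 were tested in a comparison. With VWF at 3.5 h 5 of 10 passed (43.6% of all genes tested, 1873 higher and 1705 lower), all lower, and 2 reached the fold (14.7%). Among these was Rxra, an RXR gene (38.0 CPM against 82.9 CPM in controls, log2 fold change -1.09, SE 0.10, adjusted p = 4.15e-06, edgeR). Rxrb, another RXR gene, was lower without reaching the fold (36.5 CPM against 45.6 CPM, -0.29, SE 0.07, adjusted p = 0.00611, edgeR). With LPS at 3.5 h 6 of 10 passed, all lower (65.7% of all genes, 2606 higher and 2778 lower). Rxra was at 17.9 CPM (-2.19, SE 0.10, adjusted p = 9.87e-09, edgeR) and Rxrb at 30.4 CPM (-0.57, SE 0.08, adjusted p = 0.000111, edgeR). At 16 h VWF moved 1 of 9 (27.7%), Rxra, which was higher (78.2 CPM against 51.3 CPM, 0.60, SE 0.07, adjusted p = 7.51e-05, edgeR). LPS moved 5 of 11 (53.7%), 3 higher and 2 lower, with the coactivator Ncoa1 past the fold (1.12, SE 0.11, adjusted p = 1.83e-05, edgeR, and 0.59 under library size scaling) and Rxra at -0.16 (95% confidence interval -0.40 to 0.08, adjusted p = 0.238, edgeR). Rxrb at 16 h was at -0.06 (adjusted p = 0.732, edgeR) with VWF and at -0.66 (adjusted p = 0.000867, edgeR) with LPS. Median log2 fold changes of the tested partners were -0.21 and 0.05 for VWF and -0.55 and -0.10 for LPS at 3.5 h and 16 h.

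Enzymes that supply or remove LXR ligands were mostly low, since 5 of 8 never reached 10 TPM. Of the 3 tested, Ch25h, which makes 25-hydroxycholesterol, rose with VWF at 3.5 h from 9.05 to 364 CPM (log2 fold change 5.36, SE 0.18, adjusted p = 2.77e-09) and with LPS to 194 CPM (4.44, SE 0.16, adjusted p = 1.51e-09, edgeR). At 16 h it was above control with LPS (35.2 CPM against 6.11 CPM, 2.56, SE 0.20, adjusted p = 4.05e-06, edgeR) and stood at 3.57 CPM with VWF (-0.79, 95% confidence interval -1.75 to 0.18, adjusted p = 0.229, edgeR). Cyp27a1, the sterol 27-hydroxylase, fell with VWF (-1.02, SE 0.27, adjusted p = 0.0165) and with LPS (-3.18, SE 0.42, adjusted p = 0.000144, edgeR) at 16 h, the VWF value being under the fold threshold without control replicate 3 or 4 or VWF replicate 1 or 4 (-0.86 without control replicate 3), with filterByExpr and with no filter. In all, 1 of 3 passed with VWF at 3.5 h (43.6% of all genes) and 1 of 3 at 16 h (27.7%). With LPS 2 of 3 passed at 3.5 h (65.7%) and 3 of 3 at 16 h (53.7%).

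Other genes known as LXR targets moved in both directions. Of 11 tested with VWF at 3.5 h 4 passed (43.6% of all genes, 1873 higher and 1705 lower), all lower, and 3 were past the fold (14.7%). These were the phagocytic receptor Mertk (-2.66, SE 0.29, adjusted p = 1.49e-05), the fatty acid desaturase Scd2 (-1.90, SE 0.19, adjusted p = 8.21e-06) and the small GTPase Arl4c (-1.68, SE 0.09, adjusted p = 4.66e-08, edgeR). At 16 h 3 of 10 passed with VWF (27.7%), with Scd2 higher (1.24, SE 0.13, adjusted p = 5.75e-05) and the lipoprotein lipase Lpl lower (-1.17, SE 0.27, adjusted p = 0.00811, edgeR, and -0.91 without control replicate 5). With LPS at 3.5 h 1 was higher and 4 were lower of 11 (65.7% of all genes passed), led by Scd2 (-2.73, SE 0.19, adjusted p = 2.50e-07), Fasn, the fatty acid synthase (-2.05, SE 0.21, adjusted p = 6.65e-06) and Arl4c (-1.66, SE 0.12, adjusted p = 2.60e-07, edgeR). With LPS at 16 h 2 were higher and 4 lower of 10 (53.7%), among them the transglutaminase Tgm2 (2.48, SE 0.31, adjusted p = 9.61e-05), Lpl (-1.94, SE 0.32, adjusted p = 0.000627) and Arl4c (-1.46, SE 0.19, adjusted p = 0.000114, edgeR). Srebf1, the regulator of fatty acid synthesis and a classical LXR target, was at 0.12 and 0.16 with VWF (adjusted p = 0.183 and 0.0792) and at 0.08 (adjusted p = 0.338) and -0.33 (SE 0.07, adjusted p = 0.00284, edgeR) with LPS at 3.5 h and 16 h. The last value of Srebf1 was -0.24 (adjusted p = 0.149, edgeR) with no filter and -0.87 under library size scaling. Median log2 fold changes of the tested targets were -0.10 and -0.01 for VWF and -0.28 and 0.09 for LPS.

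Genes of cholesterol uptake, storage and transport inside the cell were read from a list of 19, of which 16 were tested in each treatment comparison. With VWF at 3.5 h 5 were higher and 6 lower (43.6% of all genes passed), and at 16 h 3 were higher and 3 lower (27.7%). Msr1, the scavenger receptor A that takes up modified LDL, rose in every comparison with control, by 1.75 (SE 0.10, adjusted p = 6.44e-08) and 1.78 (SE 0.12, adjusted p = 2.64e-06) with VWF and by 1.53 (SE 0.09, adjusted p = 8.20e-08) and 2.13 (SE 0.13, adjusted p = 6.20e-07, edgeR) with LPS at 3.5 h and 16 h. The LPS value of Msr1 at 3.5 h was 1.01 under library size scaling. VWF at 3.5 h also raised Gramd1a, a sterol carrier between plasma membrane and endoplasmic reticulum (1.91, SE 0.07, adjusted p = 5.06e-09), and lowered Nceh1, a cholesteryl ester hydrolase (-1.18, SE 0.10, adjusted p = 1.21e-06, edgeR). At 16 h it lowered the scavenger receptor Cd36 (-1.13, SE 0.12, adjusted p = 4.85e-05, edgeR).

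With LPS 6 of these 16 were higher and 7 lower at 3.5 h (65.7% of all genes passed), and 5 were higher and 7 lower at 16 h (53.7%). At 3.5 h the sterol carrier Stard4 (-1.62, adjusted p = 2.36e-07), Nceh1 (-1.24, adjusted p = 3.12e-07) and the lysosomal cholesterol exporter Npc1 (-1.24, adjusted p = 0.00183, edgeR) fell and Gramd1a rose (1.85, adjusted p = 9.97e-09, edgeR). At 16 h Stard4 (-2.08, adjusted p = 1.48e-06), the lysosomal acid lipase Lipa (-1.05, adjusted p = 0.00732) and Scarb1, the high-density lipoprotein receptor (-1.03, adjusted p = 0.00176, edgeR), fell. The last pair stood at -0.88 and -0.92 without LPS replicate 4, also missed the fold with filterByExpr and with no filter, and stood at -1.59 and -1.58 under library size scaling. In the same cultures Stard3 (1.92, adjusted p = 2.47e-05) and Npc2 (1.71, adjusted p = 0.000741, edgeR), both carriers of endosomal cholesterol, rose. Lrp1, a receptor for Apoe, was lower in each comparison, at -0.67 (adjusted p = 0.0252) and -0.40 (adjusted p = 0.0341) with VWF and at -1.14 (SE 0.17, adjusted p = 0.000142) and -0.60 (adjusted p = 0.0130, edgeR) with LPS. The VWF calls were lost in 5 and 7 of 10 fits that left out a culture (control replicates 4 and 5 and VWF replicates 2, 3 and 4 at 3.5 h, control replicates 1 to 4 and VWF replicates 1, 2 and 4 at 16 h). At 16 h the VWF call of Lrp1 was also lost under library size scaling, filterByExpr, no filter, all groups in one fit and the replicate block (adjusted p from 0.0622 to 0.141, edgeR). Its LPS call at 16 h was lost with no filter (-0.51, adjusted p = 0.0517, edgeR), and the value was -1.14 under library size scaling. Median log2 fold changes of the list were -0.27 and 0.02 for VWF and -0.11 and -0.22 for LPS.

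**Figure D4:**
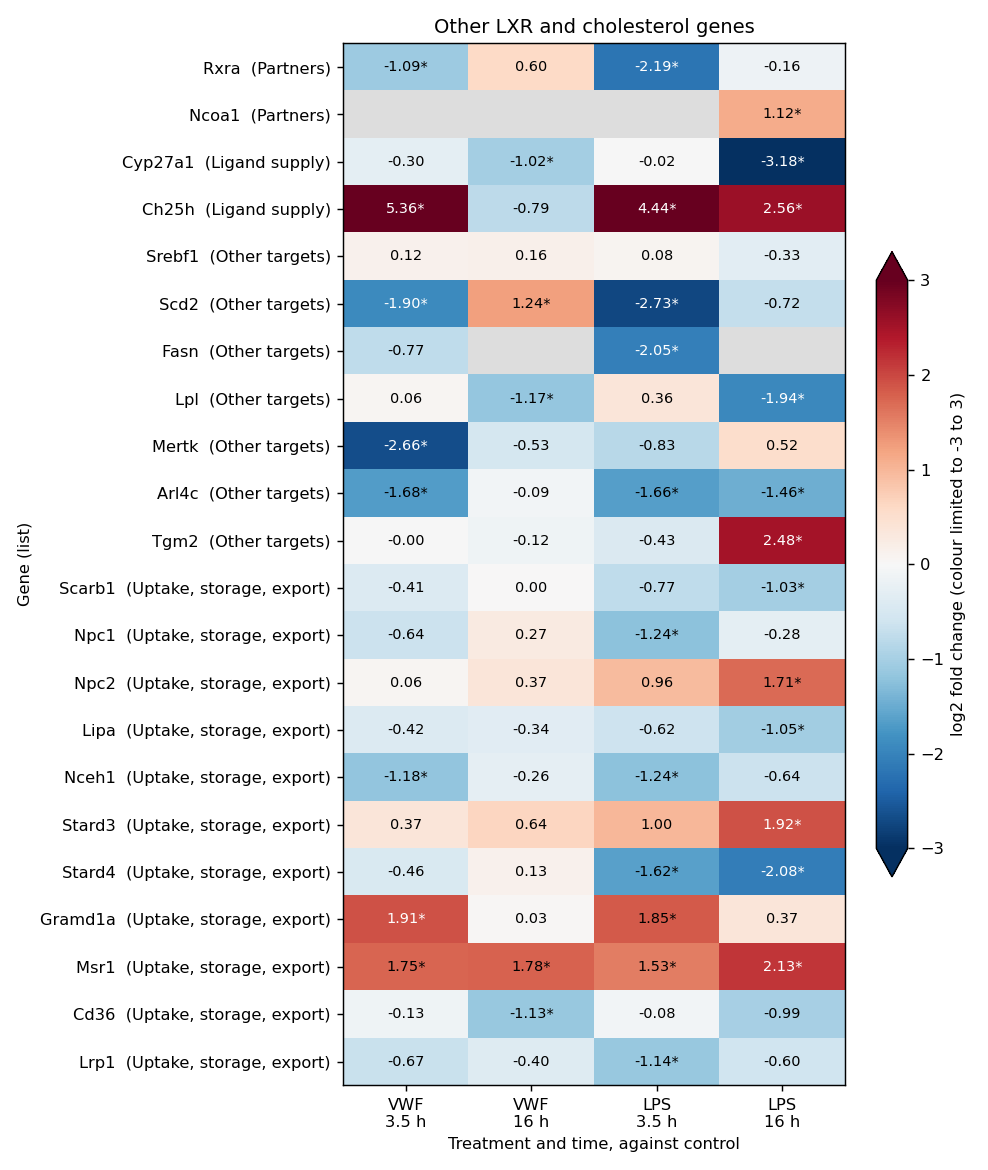
Log2 fold change against control (numbers and colour, colour limited to -3 to 3) of LXR and cholesterol genes from the lists, chosen among those that passed both thresholds in at least 1 of the 4 comparisons, with Srebf1 added for its role. An asterisk marks genes past both thresholds and grey marks genes that were not tested; Msr1 carries an asterisk in all 4 columns and Ch25h in 3.

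The summed level of the dendritic cell markers moved with some of these differences. It was 1.21 to 1.92 CPM in controls, 13.6 to 19.3 CPM with VWF and 21.7 to 27.2 CPM with LPS at 3.5 h. At 16 h it was 0.651 to 1.95, 0.933 to 2.95 and 13.8 to 31.3 CPM. Each of the 5 markers was detected in at least 1 culture. They were not compared singly, so the sum may follow 1 of them. The part of this sum in the changes of the LXR genes was not tested. Mertk, 1 of the 8 macrophage markers, is also in the list of LXR targets.

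Across all 28 cultures, the genes most like each member by Pearson r of log2 CPM (prior count 2, 8867 genes compared) are given as a description, since cultures of a group share their treatment. Nr1h3 was most like Tgfbi (r = 0.913), Acp2 (0.910) and Prex1 (0.898), and Abca1 like Tgfbi (0.911), Fgr (0.859) and Itgal (0.856). Acp2 lies next to Nr1h3 on chromosome 2, at 91202885 to 91214098 on the opposite strand, with 50 bases between the annotated genes. Abcg1 was most like Tmco6 (0.896), Wipi2 (0.896) and Cant1 (0.892), and Nr1h2 like Npepps (0.927), Scpep1 (0.925) and Ywhag (0.917). Mylip was most like Tatdn2 (0.896), Dph2 (0.895) and Gga3 (0.877), and Apoe like Tpt1 (0.910), Nop53 (0.910) and 2310010J17Rik (0.875). Among the members the highest value was 0.743 between Abca1 and Nr1h3 and the lowest -0.80 between Abcg1 and Apoe. Once each group's mean was removed, the r of Abca1 with Tgfbi was 0.534 and with Fgr 0.156, and that of Nr1h3 with Acp2 was 0.423.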

How the data were processed

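BMDM RNA was sequenced by the authors as paired-end reads, mapped to GRCm38 (mm10) and quantified with STAR. The values used are the deposited counts, whole numbers of reads per gene and culture, not normalized by the authors. For the STAR version, annotation, strand setting and multi-mapping reads, details were not given in the sources used here, and a wrong strand setting or shared reads would change counts. Groups came from the sample labels. Members and gene lists were chosen with earlier results of these data known. A GENCODE M21 annotation of GRCm38 gave symbols and exon lengths for TPM, and all 57 listed genes matched.

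Counts were tested with edgeR 4.0.16 in R 4.3.3 (TMM factors, robust quasi-likelihood fit, only the groups compared) on genes at 10 TPM or more in at least 1 culture of a comparison. Benjamini-Hochberg adjustment ran over all genes tested, with calls at an adjusted p of 0.05 and a second rule adding an absolute log2 fold change of 1. Change of an effect with time was the interaction term. CPM values use TMM factors over all 28 cultures. At depths of at least 41131209 counts, every member had at least 498 counts in each culture. No pair of cultures was closer than counting noise allows (chi-square per degree of freedom 15.8 or more). Receptor ratios were tested by exact permutation in Python 3.11.15 with numpy 2.4.6 and pandas 2.3.3. The fit was tested on simulated data.

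Named genes were the 6 members, at most 3 called genes per list, direction and comparison with the largest change, Rxra, Rxrb, Srebf1 and Lrp1 by role, and the 3 genes most like each member. A few listed genes that the rule would name are counted in their lists but not reported here. Replicate numbers were taken as a possible pairing where every same-numbered pair of deviations from the group means correlated above 0.1. This rule was met for VWF with LPS at 16 h (4 pairs, 0.160 to 0.781) and for no other groups. Cultures of different numbers were not compared, so the rule cannot show that the numbers pair cultures. Alternatives were DESeq2 1.42.0, scaling by library size or by median-of-ratios factors, the filterByExpr rule or no filter, all groups in one fit, the replicate block and leaving out each culture. Leaving out both 16 h cultures that stood apart, and the receptor ratio, were added after seeing the data.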

Additional observations from a re-analysis of the deposited data

Results flagged for a closer look

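In 5 of 36 combinations of gene and group, 1 culture lay apart from the rest by Dixon's criterion, which chance meets in about 1 in 20. Abcg1 was at 87.4 CPM in VWF replicate 5 at 3.5 h, the highest of its group, and at 129 CPM in LPS replicate 3 at 16 h, also the highest. Nr1h2 was lowest in its group in control replicate 5 (53.6 CPM) and in LPS replicate 4 (97.3 CPM) at 16 h, and Mylip was lowest in that same LPS culture (16.2 CPM). Control replicate 5 and LPS replicate 4 at 16 h are the cultures that correlated least with their groups over all genes.

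The effect of a treatment differed between 3.5 h and 16 h by the interaction test. For VWF the log2 change of the effect was 2.24 for Nr1h3 and -0.43 for Nr1h2. For LPS it was 3.64 for Nr1h3, 1.73 for Mylip, 1.25 for Abca1, 1.00 for Abcg1, 0.61 for Nr1h2 and -0.55 for Apoe.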

How the results depend on the processing

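Of 1236 member values under alternatives for 66 results, 1100 kept their direction and side of the adjusted p threshold, 78 lost the threshold, 26 gained it and 32 turned sign. Library size scaling turned Nr1h2 with VWF at 3.5 h (-0.0078), Nr1h2 (-0.48) and Apoe (-0.10) with LPS at 3.5 h, Abcg1 (-0.070) and Mylip (-0.28) with LPS at 16 h and Apoe between VWF and LPS at 16 h (0.43). It moved the median of all genes by -0.22 for VWF at 3.5 h, -0.54 and -0.57 for LPS at 3.5 h and 16 h, and 0.30 and 0.44 between VWF and LPS. Apoe between VWF and LPS at 16 h was 0.060 with the replicate block and 0.010 without both cultures that stood apart. Apoe with VWF at 3.5 h was 0.033 with filterByExpr and 0.025 without a filter, and Abcg1 with VWF at 16 h was 0.030, 0.042 and, without both cultures, 0.046. Nr1h2 between control times was 0.026 without both. Leaving out 1 culture gave -0.18 to 0.065 for Mylip and -0.096 to 0.062 for Apoe with VWF at 3.5 h, -0.11 to 0.064 for Abcg1 with VWF at 16 h, -0.027 to 0.13 for Nr1h2 with LPS at 3.5 h, -0.12 to 0.079 for Apoe between VWF and LPS at 16 h, and -0.14 to 0.026 for Nr1h2 between control times. As reported, only Nr1h2 with VWF and Apoe with LPS at 3.5 h and Abcg1 with LPS at 16 h of these passed the test. Of the turned values, Nr1h2 with LPS at 3.5 h (adjusted p = 0.00121) and Apoe between VWF and LPS at 16 h (adjusted p = 0.0380, edgeR) passed under library size scaling. The cause was not tested.

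Counts of genes past both thresholds grew with filterByExpr and with no filter, which test more genes: 2099 and 2366 against 1206 for VWF at 3.5 h, 1362 and 1378 against 679 at 16 h, 3917 and 4542 against 2010 for LPS at 3.5 h, 4087 and 4224 against 2210 at 16 h, 1776 and 1942 against 856 between VWF and LPS at 3.5 h, and 3897 and 4242 against 1932 at 16 h. For time they were 1565 and 1524 against 759 in controls, 3458 and 3974 against 1696 with VWF and 4116 and 4298 against 1964 with LPS, and for the change of the effect 1972 and 1904 against 1171 for VWF and 3790 and 3613 against 2301 for LPS. Library size scaling moved the split of higher and lower calls from 753 and 453 to 612 and 643 for VWF at 3.5 h, from 1047 and 963 to 708 and 2157 and from 1221 and 989 to 793 and 2253 for LPS at the 2 times, from 353 and 503 to 751 and 340 and from 837 and 1095 to 1726 and 700 between VWF and LPS, and from 474 and 697 to 612 and 570 for the change of the VWF effect. With the replicate block 1216, 669, 1988 and 2266 genes were called for VWF and LPS against control at 3.5 h and 16 h, VWF first, in groups whose numbers did not meet the rule for a pairing. Among members the block there ended the calls of Apoe with LPS at 3.5 h (0.37, adjusted p = 0.0986), Apoe between control times (adjusted p = 0.125), Abca1 between VWF times (adjusted p = 0.0719) and Nr1h2 for the change of the VWF effect (adjusted p = 0.0658). It added Apoe between VWF and LPS at 3.5 h (adjusted p = 0.0372) and Mylip between LPS times (adjusted p = 0.0244, edgeR). For VWF and LPS at 16 h, where the numbers met that rule, the calls that the block changed (Nr1h3 and Mylip) are given with the results.

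Groups of 4 or 5 cultures, and the culture that stood apart in the control and in the LPS group at 16 h, limit what can be said of the smaller differences in Nr1h2, Mylip and Apoe. Cultures without replicate numbers tied to animals leave the source of the spread unknown.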
